A study of Mus musculus with 2 samples.

Results

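The Indian hedgehog signal of the mouse uterus, and the stromal transcription factors read beside it, were followed through 8 genes in single endometrial cells. The genes were Ihh, the ligand; Ptch1, Smo, Gli1, Gli2 and Hhip, which receive, transduce or restrain the signal; and Nr2f2 and Hand2. They were chosen by symbol, and all 8 were among the 19070 genes measured in both libraries. Cells came from the endometrium of females on day 3 of pregnancy. One library was made from Erbb3 f/f females, the controls, and the other from Erbb3 d/d females, described as lacking Erbb3 in the stroma. Erbb3 encodes a receptor of the epidermal growth factor receptor family. The driver of the deletion, the strain, the age and the number of females in each library were not given in the sources used here. With 1 library per genotype, a difference between libraries has no replicate check. No p-value is given, and every interval below is a 95% interval that covers counting error only.

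In textbook accounts, progesterone acting on the uterine epithelium induces Ihh, and the secreted ligand reaches the stroma beneath. There it binds Ptch1, which frees Smo to act at the primary cilium, and the Gli transcription factors are activated. Gli1, Ptch1 and Hhip are themselves induced by the pathway, so their RNA is widely used as its readout. Nr2f2 (COUP-TFII) is a stromal nuclear receptor placed downstream of the signal, and Hand2 is a progesterone-induced stromal factor known to hold down fibroblast growth factor signalling to the epithelium. This axis is best known for stopping epithelial growth and preparing the stroma for implantation.

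The promoters of 4 members are shown because the ligand, its receptor, a signal effector and a stromal factor differ in whether they hold the core of the motif bound by Gli proteins. Each is the 250 bases before a RefSeq transcription start (GRCm38.p6 coordinates), 5′ to 3′ along the gene's strand, and capitals mark the core CCACCC or its reverse complement GGGTGG.
Ihh, chr1:74951673-74951922, minus strand: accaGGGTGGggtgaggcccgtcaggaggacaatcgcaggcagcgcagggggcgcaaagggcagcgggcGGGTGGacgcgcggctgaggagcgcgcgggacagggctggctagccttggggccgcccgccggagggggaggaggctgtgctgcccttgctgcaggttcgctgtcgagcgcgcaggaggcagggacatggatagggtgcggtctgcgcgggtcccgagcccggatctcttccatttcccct
Gli2, chr1:119053620-119053869, minus strand: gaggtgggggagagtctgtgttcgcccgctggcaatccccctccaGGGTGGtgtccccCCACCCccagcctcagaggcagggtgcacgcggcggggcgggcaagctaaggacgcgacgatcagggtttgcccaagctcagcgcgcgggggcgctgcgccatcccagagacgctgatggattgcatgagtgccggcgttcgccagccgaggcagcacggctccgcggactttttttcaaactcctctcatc
Ptch1, chr13:63565736-63565985, minus strand: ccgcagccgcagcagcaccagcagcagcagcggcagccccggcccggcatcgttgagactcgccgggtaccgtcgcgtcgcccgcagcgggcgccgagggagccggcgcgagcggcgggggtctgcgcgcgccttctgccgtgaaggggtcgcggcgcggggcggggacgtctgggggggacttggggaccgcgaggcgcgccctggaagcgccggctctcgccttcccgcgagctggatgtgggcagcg
Nr2f2, chr7:70366747-70366996, minus strand: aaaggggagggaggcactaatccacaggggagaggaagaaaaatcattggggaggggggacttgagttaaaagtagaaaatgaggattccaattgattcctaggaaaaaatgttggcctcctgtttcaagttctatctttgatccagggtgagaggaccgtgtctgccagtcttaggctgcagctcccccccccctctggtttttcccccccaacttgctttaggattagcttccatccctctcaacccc
An entry was found for 7 of the 8 members, and Gli1 was the member without one. The core lies inside the longer Gli motif GACCACCCA, and both were searched on both strands. The long motif was in 0 of the 7 windows and in 74 of 32851 windows of the same table (0.225%). The core was in 4 of the 7, with 2 copies each in Ihh and Gli2 and 1 each in Smo and Hhip. It was also in 9223 of the 32851 windows (28.1%). The windows of Ptch1, Nr2f2 and Hand2 held neither motif. A match is a description of these letters and not a measured binding site.

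The deposited matrices held 5783 f/f and 2125 d/d cell barcodes with no barcode in common, at medians of 821 and 791 UMIs, the counts of distinct tagged molecules. After barcodes with a mitochondrial share above 10% were left out, 5503 and 1830 remained. Cells were assigned to 7 types by the UMIs of known markers, which gave 1853 and 642 epithelial-gated cells and 910 and 213 stromal-gated cells. Mesothelial, mural, endothelial and myeloid gates held 122 to 190 f/f and 42 to 70 d/d cells, and the lymphoid gate only 5 and 4, too few to be described further. All 9 epithelial and all 6 stromal markers were detected in their own class in both libraries. Summed stromal markers reached 8628 and 9016 UMIs per 1000000 UMIs of the class (CPM) in the stromal gate against 585 and 583 CPM in the epithelial gate. Erbb3, the deleted gene, had 170 and 26 UMIs in epithelial-gated cells, 81.0 and 40.1 CPM, a log2 ratio of -1.01 (-1.67 to -0.41). In stromal-gated cells it had 8 and 3 UMIs, 9.19 and 16.1 CPM, with a log2 ratio of 0.81 and an interval from -1.74 to 2.87. The lower value was thus in the class that the label does not name. The labelled stromal deletion could not be checked at this depth, and the position of the probes relative to the deleted part was not given.

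Most gated Ihh UMIs, those of the ligand, were found in epithelial-gated cells. Barcodes in no gate held a further 101 Ihh UMIs in f/f, 53.8 CPM, and 19 in d/d, 29.4 CPM. All used barcodes together held 250 and 56, so the cell type of many Ihh UMIs was not assigned. In the f/f library epithelial-gated cells had 118 Ihh UMIs, 56.3 CPM (46.6 to 67.4), and stromal-gated cells had 12 UMIs, 13.8 CPM (7.13 to 24.1). In the d/d library the same classes had 28 UMIs, 43.2 CPM (28.7 to 62.4), and 2 UMIs, 10.7 CPM (1.30 to 38.7). Epithelial-gated cells were thus higher than stromal-gated cells in both libraries. They held 79.2% of the gated Ihh UMIs of the f/f library and 75.7% of those of the d/d library. Such shares also depend on class size, because the epithelial gate had the largest UMI total over all genes. That total was 2097493 for f/f cells and 648020 for d/d cells. The stromal gate, the next largest, had totals of 870217 (f/f) and 186452 (d/d). The log2 ratio of stromal over epithelial level was -2.03 (-3.02 to -1.17) in f/f and -2.01 (-5.12 to -0.02) in d/d. The mesothelial, mural, endothelial and myeloid classes of f/f lay between 25.1 and 32.8 CPM on 3 to 6 UMIs each, and their intervals overlapped the epithelial one. In d/d, myeloid-gated cells had 53.7 CPM on 3 UMIs, all in 1 cell, and mural-gated cells 46.9 CPM on 2 UMIs in 1 cell. Both lay above the d/d epithelial value with wide overlap, so the order of these classes was not resolved. A UMI of Ihh was seen in 5.77% of f/f epithelial-gated cells and in 1.21% of stromal-gated cells, at median depths of 947 and 742.5 UMIs. With every cell thinned to 500 UMIs, which left out 2 and 8 cells, the shares were 2.49% and 0.67%. RNA set free from other cells can add to such low shares. The f/f stromal level of Ihh was 24.5% of its epithelial level, and how much of it was such RNA was not tested. Of the other Hedgehog ligands, Shh had 0 UMIs in both classes of both libraries and Dhh had 1 UMI in each epithelial gate, so Ihh was the ligand that this depth could resolve.

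**Figure D1:**
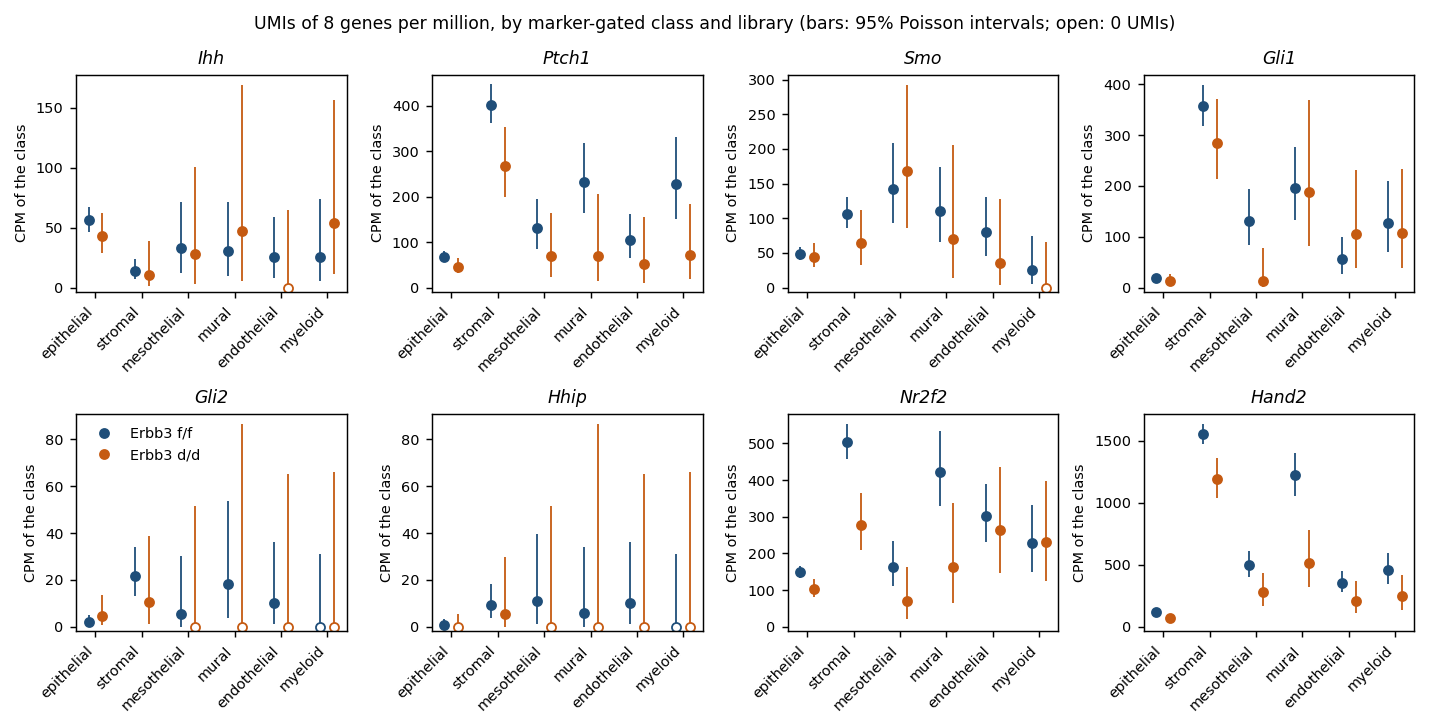
CPM (vertical axes, each from near 0) of the 8 genes in 6 marker-gated classes (horizontal axes) of the f/f (blue) and d/d (orange) libraries. Points are UMI sums over a class, bars their 95% Poisson intervals, and open points sums of 0 UMIs. Ihh is highest in f/f epithelial-gated cells at 56.3 CPM, while Ptch1, Gli1, Nr2f2 and Hand2 are highest in f/f stromal-gated cells.

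Ptch1, the receptor and target of the signal, had its highest level in the stroma. Stromal-gated cells had 350 UMIs, 402 CPM (361 to 447), in the f/f library and 50 UMIs, 268 CPM (199 to 354), in the d/d library. Epithelial-gated cells had 142 UMIs, 67.7 CPM, and 30 UMIs, 46.3 CPM. The stromal level was higher by 2.57 on the log2 scale (2.29 to 2.86) in f/f and by 2.53 (1.85 to 3.24) in d/d. Below the f/f stroma came mural (232 CPM), myeloid (228 CPM), mesothelial (131 CPM), endothelial (106 CPM) and epithelial cells, and only the step from stromal to mural exceeded the intervals of neighbours. Smo, the transducer that Ptch1 holds in check, was spread more evenly. Its f/f level was 107 CPM (86.3 to 131) in stromal-gated and 48.2 CPM (39.2 to 58.5) in epithelial-gated cells. Among the 6 classes described, mesothelial-gated cells had the highest Smo value in both libraries, 142 CPM on 26 UMIs for f/f and 168 CPM on 12 UMIs for d/d, with intervals that overlapped those of the stroma. The stromal over epithelial log2 ratio of Smo was 1.15 (0.73 to 1.57) in f/f and 0.52 in d/d, where 12 and 29 UMIs did not resolve it.

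Gli1, the transcription factor whose RNA follows pathway activity most directly, had the largest ratio between the classes among the members, with an interval that overlapped that of Hand2 in each library. It had 311 UMIs, 357 CPM (319 to 399), in f/f stromal-gated cells and 41 UMIs, 19.5 CPM (14.0 to 26.5), in epithelial-gated cells. The d/d library gave 53 UMIs, 284 CPM (213 to 372), and 9 UMIs, 13.9 CPM (6.35 to 26.4). The classes did not overlap in either library, with log2 ratios of 4.19 (3.72 to 4.70) and 4.36 (3.32 to 5.56). Of the 7039 genes counted in f/f, 99.8% had a lower ratio. Mural-gated cells followed at 196 CPM, then mesothelial (131 CPM), myeloid (127 CPM) and endothelial cells (55.3 CPM). Stromal cells stood above the mural interval, epithelial cells below the endothelial one, and the classes between overlapped their neighbours. Gli2, the main activator that acts before Gli1 is made, had only 19 stromal and 4 epithelial UMIs in the f/f library. The d/d library gave 2 and 3. Its f/f log2 ratio was 3.52 (1.93 to 5.53). Hhip, a membrane protein that binds and restrains Hedgehog ligands, had 8 stromal and 2 epithelial UMIs in f/f, a log2 ratio of 3.27 (0.94 to 6.54). In d/d it had 1 stromal and 0 epithelial UMIs, the latter with an upper limit of 5.69 CPM. Neither Gli2 nor Hhip gave a usable comparison of the libraries.

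Nr2f2 and Hand2, the stromal transcription factors, differed from each other in how far they reached beyond the stroma. Nr2f2 had 439 UMIs, 504 CPM (458 to 554), in f/f stromal-gated cells and 313 UMIs, 149 CPM (133 to 167), in epithelial-gated cells. Its d/d values were 52 UMIs, 279 CPM (208 to 366), and 67 UMIs, 103 CPM (80.1 to 131). Mural (422 CPM), endothelial (302 CPM), myeloid (228 CPM) and mesothelial cells (164 CPM) lay between these in f/f, with overlapping intervals at each step. In d/d the endothelial-gated cells, at 265 CPM on 15 UMIs, stood beside the stromal 279 CPM. Hand2 had 1352 UMIs, 1554 CPM (1472 to 1639), in f/f stromal-gated cells and 222 UMIs, 1191 CPM (1039 to 1358), in d/d. Epithelial-gated cells had 254 UMIs, 121 CPM, and 47 UMIs, 72.5 CPM. Mural-gated cells were next at 1223 CPM (1059 to 1405), then mesothelial (497 CPM), myeloid (456 CPM) and endothelial cells (357 CPM) in f/f. Only mesothelial, myeloid and endothelial neighbours overlapped in that order. The stromal over epithelial log2 ratio was 1.76 (1.54 to 1.97) in f/f and 1.43 (0.88 to 1.98) in d/d for Nr2f2. For Hand2 it was 3.68 (3.49 to 3.88) and 4.04 (3.58 to 4.52).

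The signal of stromal genes in other classes was set beside that of the stromal markers. The gate itself uses these markers, so their share outside the stroma is lowered by construction, and a gene outside the gate can exceed it without being expressed there. The 6 stromal markers stood in epithelial-gated cells at 6.79% of their stromal level in f/f, single markers between 6.22% and 13.2%, and at 6.47% in d/d, between 4.83% and 15.01%. Gli1 stood at 5.47% and 4.89%, and Hand2 at 7.79% and 6.09%. Gli1 in both libraries and Hand2 in d/d were below the summed markers. In f/f Hand2 was above the summed markers and within the range of single ones. Background RNA was not measured, and these epithelial values are not read as epithelial expression. Ptch1 stood at 16.8% and 17.3%, Nr2f2 at 29.6% and 37.1%, and Smo at 45.1% and 69.5%, and whether epithelial cells made this RNA was not tested. In f/f mural-gated cells the markers stood at 48.0% (19.7% to 51.1%), Hand2 at 78.7% and Nr2f2 at 83.6%. In f/f myeloid-gated cells the markers stood at 29.4% (24.7% to 53.8%), Hand2 at 29.4%, Gli1 at 35.5% and Ptch1 at 56.7%. In f/f endothelial-gated cells the markers stood at 22.3% (21.7% to 48.6%), Hand2 at 23.0% and Nr2f2 at 59.8%. The d/d values differed: in mural-gated cells the markers stood at 40.1% (0% to 66.5%) and Hand2 at 43.3%, and in myeloid-gated cells the markers stood at 24.6% (7.25% to 29.6%) and Ptch1 at 26.7%.

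A gene was called different when its levels were at least 2-fold apart with an interval that left out 1, and was counted with at least 100 UMIs over both sides. In f/f 6 members were counted, and all 6 were called, 5 higher in the stroma and Ihh lower. Of all 7039 counted genes 11.3% were called higher and 16.4% lower. In d/d only Nr2f2 and Hand2 were counted and both were higher, against 4.48% of 2435 genes, while 18.4% of those genes were called lower. Positions among genes in f/f were 98.9% of genes below Hand2, 96.3% below Ptch1, 94.2% below Nr2f2, 90.3% below Smo and 6.98% below Ihh.

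**Figure D2:**
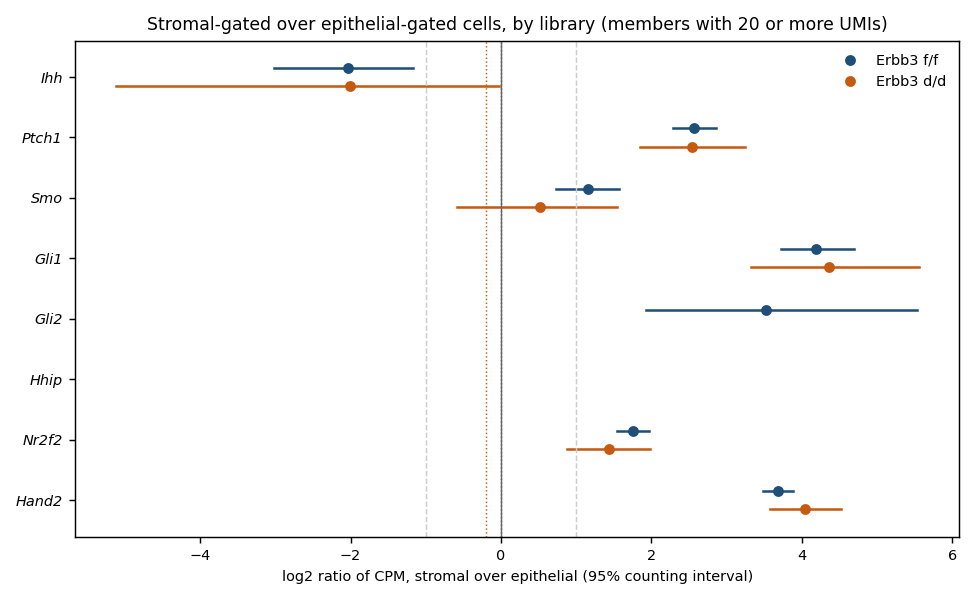
Log2 ratio of CPM in stromal-gated over epithelial-gated cells (horizontal axis) for members with at least 20 UMIs (rows), in the f/f (blue) and d/d (orange) libraries, with 95% counting intervals. Dashed lines mark 2-fold, dotted lines the median of all counted genes. Ihh lies to the left at -2.03 and -2.01, and Gli1 farthest to the right at 4.19 and 4.36.

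Between the libraries, the counted members all had lower values in d/d, and none was called at 2-fold. That absence depended on the setting: stromal Ptch1 was -1.08 with marker UMIs not scaled, stromal Smo -1.10 with single marker UMIs ignored and stromal Nr2f2 -1.01 after thinning, each past the rule. Epithelial Hand2 was -1.22 after thinning and -1.57 without barcodes holding other types' markers. The sign held under every setting tried in the stroma, but epithelial Smo turned to between 0.04 and 0.12 under 3 other ways of choosing cells. In stromal-gated cells the log2 ratio, d/d over f/f, was -0.86 (-1.30 to -0.44) for Nr2f2, -0.58 (-1.04 to -0.15) for Ptch1 and -0.38 (-0.60 to -0.18) for Hand2, and these intervals left out 0. It was -0.73 (-1.74 to 0.14) for Smo and -0.33 (-0.78 to 0.09) for Gli1, and these intervals did not. The share of stromal-gated cells with a UMI was also lower in d/d for Hand2 (61.9% and 48.8%), Nr2f2 (34.2% and 22.1%), Ptch1 (28.5% and 20.7%) and Gli1 (26.5% and 20.7%). Thinned to 500 UMIs, which left out 8 f/f cells and 0 d/d cells, the shares were 48.4% and 36.2% for Hand2, 23.6% and 13.1% for Nr2f2, 18.7% and 13.6% for Ptch1, and 18.0% and 16.0% for Gli1. Median depths were 742.5 and 714 UMIs. Ptch1 and Hand2 were lower in d/d in all 6 classes: mural-gated cells had 232 and 70.4 CPM of Ptch1 on 38 and 3 UMIs, and 1223 and 516 CPM of Hand2 on 200 and 22 UMIs. Nr2f2 was not, with 228 and 233 CPM in myeloid-gated cells. Background RNA is shared by the classes of a library, so these are not separate measurements.

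All 5 counted members lay below 0 in the stroma, with a median of -0.58 where all 3204 counted genes had a median of -0.09 and 42.2% of them lay above 0. The 2-fold rule called 0.936% of those genes higher and 3.18% lower, and no member. Among the same genes 5.90% had a lower ratio than Nr2f2, 8.46% than Smo, 13.5% than Ptch1, 25.1% than Hand2 and 29.2% than Gli1, so none was at the edge of the distribution. Some measures of the cells moved with genotype. The median mitochondrial share of stromal-gated cells was 1.17% in f/f and 2.25% in d/d. Their epithelial markers were at 299 and 349 CPM, mesothelial markers at 19.5 and 37.5 CPM, mural markers at 262 and 172 CPM, endothelial at 161 and 96.5 CPM and myeloid at 79.3 and 69.7 CPM. No epithelial or stromal marker was at 0 in this class. Single stromal markers moved both ways. Dcn had 94.2 and 247 CPM, Lum 62.1 and 118, Col1a1 2538 and 3352, and Col1a2 2119 and 2537. Col3a1 had 3391 and 2381 CPM and Pdgfra 423 and 381. The part of these measures in the ratios was not tested.

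**Figure D3:**
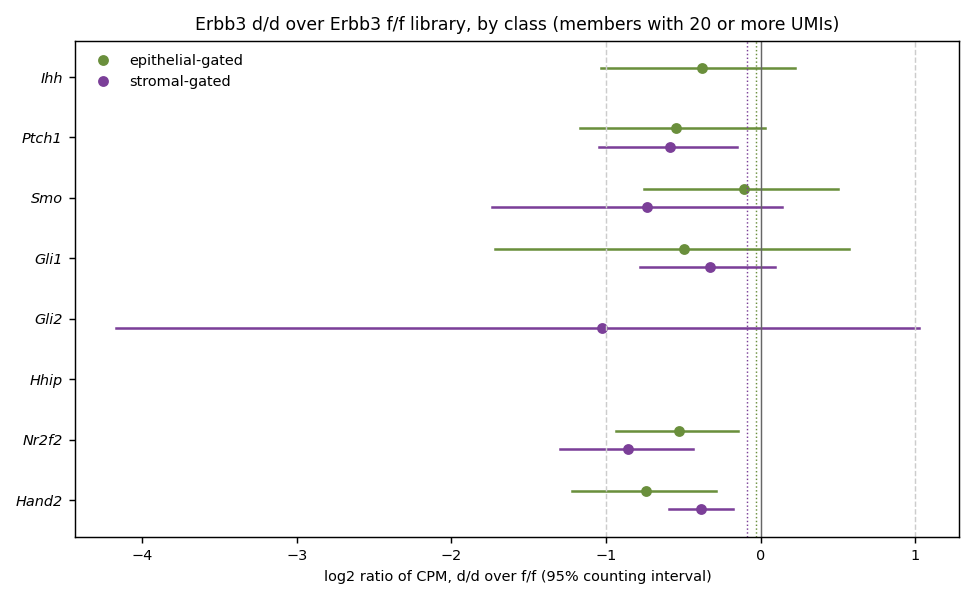
Difference in log2 CPM, d/d minus f/f (horizontal axis), for members with at least 20 UMIs (rows) in epithelial-gated (green) and stromal-gated (purple) cells, with 95% counting intervals. Dashed lines mark 2-fold and dotted lines the median of all counted genes. Every point lies left of 0, from -0.11 for epithelial Smo to -1.03 for stromal Gli2, whose interval is the widest.

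The ligand itself was not resolved between the libraries in the epithelium taken whole. Ihh had a log2 ratio of -0.38, and its interval from -1.03 to 0.22 includes both an equal level and a 2-fold lower one. Epithelial Nr2f2 was lower in d/d by a log2 ratio of -0.53 (-0.93 to -0.14), Ptch1 had -0.55 (-1.17 to 0.03) and Smo -0.11 (-0.75 to 0.50). Hand2 had -0.74 (-1.22 to -0.29) and Gli1 -0.49 (-1.72 to 0.57), on levels not read above as epithelial expression. The 5 counted members had a median of -0.53 against -0.03 over 6518 counted genes, of which 4.53% were called higher and 4.37% lower. Epithelial markers were at 3805 and 4038 CPM in these cells and stromal markers at 585 and 583 CPM.

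Epithelial cells were then divided by gates on genes of known or earlier described epithelial states, chosen with earlier results of these data known. The libraries held these gates in very different shares. A share depends on the level of the gate's own genes, and Lrp2 was itself lower in d/d epithelium. The shares thus describe the gates and do not count cell states. Of f/f epithelial-gated cells 53.5% (51.2% to 55.8%) fell in a gate on Lrp2 and Slc5a11, against 6.70% (4.89% to 8.92%) in d/d. A glandular gate on Foxa2, Cxcl15, Syn2, Gulo and Dab1 held 11.3% and 5.45%, a gate on Muc4 and Ptpn22 4.21% and 14.95%, and a gate on Ltf and Clca3b 6.04% and 14.2%. In f/f the glandular gate had the highest Ihh level, 31 UMIs in 209 cells, 124 CPM (84.1 to 176). The Lrp2 and Slc5a11 gate had 58 UMIs, 50.1 CPM (38.0 to 64.8), and cells of no gate 23 UMIs, 50.4 CPM. The Ltf and Clca3b gate had 6 UMIs, 40.3 CPM, and the Muc4 and Ptpn22 gate had 0 UMIs in 78 cells, with an upper limit of 43.9 CPM. Glandular-gated cells were higher by a log2 ratio of 1.31 (0.63 to 1.96) than the Lrp2 and Slc5a11 gate and by 1.30 (0.47 to 2.14) than cells of no gate. In the same comparison Ptch1 had 10 UMIs, 39.9 CPM, in the glandular gate against 70.8 CPM, a log2 ratio of -0.83 (-1.94 to 0.13). Gli1 had 8 UMIs, 32.0 CPM, against 13.8 CPM, a log2 ratio of 1.21 (-0.22 to 2.52), and Nr2f2 had 0.04 (-0.50 to 0.55).

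The d/d library held too few glandular-gated cells to repeat that comparison. Its 35 glandular-gated cells had 1 Ihh UMI, 27.6 CPM (0.70 to 154), and its 43 cells of the Lrp2 and Slc5a11 gate also had 1. The d/d UMIs lay in the Muc4 and Ptpn22 gate (6 UMIs, 57.2 CPM), the Ltf and Clca3b gate (3 UMIs, 30.8 CPM) and in cells of no gate (17 UMIs, 46.6 CPM). In that last group, the largest in d/d with 377 cells, the f/f value was 50.4 CPM and the log2 ratio was -0.11 (-1.11 to 0.85). Cells were also clustered without the 8 genes. The cluster led by Syn2, Slc2a3 and Cxcl15 held 801 f/f cells with 93 Ihh UMIs, 136 CPM, and 64 d/d cells with 0. With 0 UMIs taken as 3, the d/d level was lower by at least 1.07 on the log2 scale, and counting error put the upper limit of that ratio at -0.74, under 2-fold. Over both libraries this cluster held 72 stromal-gated beside 259 epithelial-gated barcodes, so it was not purely epithelial. Hand2 was lower in the same cluster, with 131 and 2 UMIs, 192 and 43.1 CPM. The part of background RNA, of the mixed content and of the uneven cell numbers in the Ihh difference was not tested. A cluster led by the cell division genes Troap, Pif1 and Prc1 held 505 f/f and 658 d/d cells at 41.5 and 39.3 Ihh CPM, a log2 ratio of -0.08 (-0.90 to 0.74). Ihh thus had a lower d/d value in the first cluster and an unresolved difference in the second. It was also unresolved in the other epithelial clusters. The d/d value was higher in those led by Sfrp2 (33.9 and 63.6 CPM), Clca3b (33.3 and 45.2 CPM) and Tmc5 (0 and 5 UMIs). Clusters led by Slc5a11, Ctsw and Atp6v1c2 had 51, 2 and 12 f/f UMIs and 0 in d/d. The last of these had 139 CPM in f/f, beside 136 CPM in the Syn2 cluster. The contrast between the clusters was not tested.

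**Figure D4:**
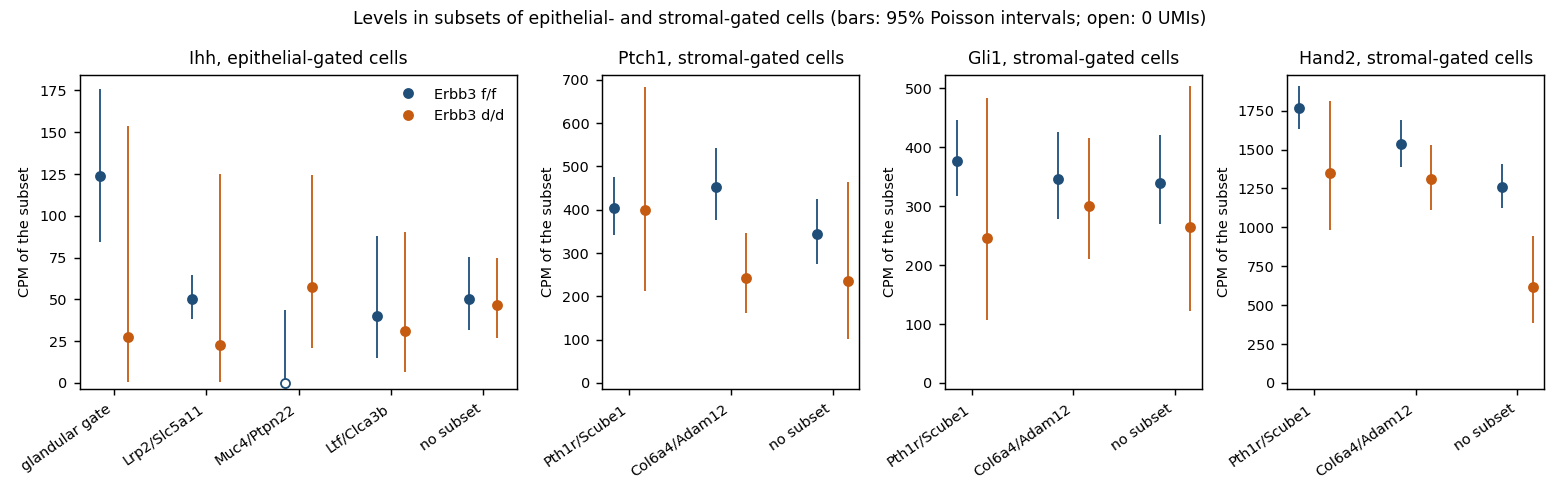
CPM (vertical axes) of Ihh in gated subsets of epithelial cells and of Ptch1, Gli1 and Hand2 in subsets of stromal cells (horizontal axes), in f/f (blue) and d/d (orange). Points are UMI sums, bars 95% Poisson intervals, and the open point 0 UMIs. The f/f glandular gate stands at 124 CPM of Ihh, and stromal Ptch1 in the Col6a4 and Adam12 gate at 453 CPM in f/f and 242 CPM in d/d.

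Stromal cells were divided by Pth1r and Scube1 or by Col6a4 and Adam12, gates that also differed in share between the libraries. The first held 38.5% of f/f and 18.8% of d/d stromal-gated cells, the second 28.6% and 59.2%. Within f/f the gates differed little in the pathway readouts. The Col6a4 and Adam12 gate over the Pth1r and Scube1 gate had log2 ratios of 0.16 (-0.20 to 0.52) for Ptch1, -0.12 (-0.52 to 0.27) for Gli1, 0.03 (-0.30 to 0.35) for Nr2f2 and -0.20 (-0.38 to -0.02) for Hand2. Differences of 2-fold between the gates were thus outside the intervals of all 4 genes.

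Nr2f2 had a lower d/d value inside each stromal gate, which counting error left unresolved in the Pth1r and Scube1 gate. Nr2f2 had a log2 ratio of -0.74 (-1.29 to -0.21) in the Col6a4 and Adam12 gate on 142 and 39 UMIs. It was -0.79 (-1.87 to 0.12) in the Pth1r and Scube1 gate on 193 and 10 UMIs, and -2.27 (-4.57 to -0.68) in cells of neither gate on 104 and 3 UMIs. Ptch1 had -0.91 (-1.55 to -0.31) in the Col6a4 and Adam12 gate and -0.02 (-0.96 to 0.80) in the Pth1r and Scube1 gate. The interval of one Ptch1 ratio overlapped that of the other, and their difference was not tested. In cells of neither gate Ptch1 had 344 CPM in f/f and 236 CPM in d/d, on 84 and 8 UMIs. With at least 2 UMIs of a gate's genes required, the Col6a4 and Adam12 gate had 404 CPM (320 to 505) in f/f and 277 CPM (185 to 397) in d/d. These intervals overlapped, and the Pth1r and Scube1 gate then had 435 and 471 CPM. Hand2 had -0.23 (-0.51 to 0.04), -0.38 (-0.86 to 0.06) and -1.03 (-1.74 to -0.39) in the same order of gates, with cells of neither gate last. Gli1 had -0.21 (-0.81 to 0.36), -0.62 (-1.86 to 0.40) and -0.36 (-1.53 to 0.64). The stromal cluster made without the 8 genes, with 1180 f/f and 209 d/d cells, gave -0.74 (-1.22 to -0.30) for Ptch1 and -0.47 (-0.88 to -0.08) for Nr2f2. It gave -0.31 (-0.52 to -0.11) for Hand2 and -0.27 (-0.71 to 0.15) for Gli1.

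Other genes of the Hedgehog pathway were read from lists, beginning with co-receptors. Of Cdon, Boc, Gas1 and Lrp2, only Lrp2 was counted in the stroma, and it was called lower in d/d. Lrp2, an endocytic receptor known to bind Hedgehog ligands, had 114 and 4 UMIs, 131 and 21.5 CPM, a log2 ratio of -2.61 (-4.51 to -1.21). The f/f epithelial level of Lrp2 was 1213 CPM and the d/d one 116 CPM, a log2 ratio of -3.39 (-3.74 to -3.06), and Lrp2 is also a gene of an epithelial gate. The part of epithelial RNA in its stromal value was not tested. Cdon, the other counted co-receptor of the epithelium, had 0.12 (-0.41 to 0.63).

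Among 7 transducers (Gli3, Sufu, Kif7, Gpr161, Evc, Evc2 and Stk36), 3 were counted in the stroma and 0 called. They were Evc (-0.56, -1.34 to 0.14) and Evc2 (-0.36, -0.88 to 0.14), which pass the signal on at the base of the cilium, and Sufu (-0.79, -1.85 to 0.11), which restrains Gli proteins. In the epithelium Evc2 was called lower, 134 and 16 UMIs, 63.9 and 24.7 CPM, a log2 ratio of -1.37 (-2.22 to -0.62), which was -0.94 and under 2-fold with classes from clusters. Epithelial Sufu had -0.63 (-1.32 to 0.01). Of 8 further target genes, Bcl2, a survival gene, was the 1 counted in the stroma (0.87, 0.25 to 1.47, not called). Ccnd1, the cyclin that drives cells into division, was the 1 counted in the epithelium and was called higher in d/d. It had 99 and 90 UMIs, 47.2 and 139 CPM, a log2 ratio of 1.56 (1.13 to 1.98). Of 7 other ligands and ligand release genes only Scube1, which helps carry ligand away from cells, was counted in the stroma (0.68, 0.35 to 1.01), and none in the epithelium. Scube1 is also a gene of the stromal gate with Pth1r, whose share was lower in d/d. Of 8 cilium genes 2 were counted in the stroma and 5 in the epithelium, with 0 called in either. Among the counted stromal genes described here, the d/d value was below the f/f value for Lrp2, Evc, Evc2, Sufu, Ift172 and Kif3a and above it for Scube1 and Bcl2.

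The progesterone axis was read from 13 genes. In the stroma 7 were counted and 0 called, with a median of -0.16. Pgr, the progesterone receptor, had -0.28 (-0.82 to 0.23), Esr1, the estrogen receptor, 0.24 (0.01 to 0.46), Hoxa10 -0.16 (-0.44 to 0.12) and Hoxa11 0.15 (-0.52 to 0.78). In the epithelium 9 were counted and Gata2 was the 1 called. Gata2, a factor known to support Pgr in this tissue, had 2405 and 371 UMIs, 1147 and 573 CPM, a log2 ratio of -1.002 (-1.16 to -0.84). Over the other settings it ranged from -1.09 to -0.95, so the call was lost under some of them. Epithelial Pgr had -0.57 (-0.83 to -0.33), Esr1 -0.03 (-0.17 to 0.11), Sox17 -0.23 (-0.38 to -0.09) and Fkbp4 0.63 (0.36 to 0.89), none at 2-fold. The interval of epithelial Ihh, -1.03 to 0.22, included the values of both Pgr and Gata2.

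Fibroblast growth factors, the output that Hand2 is known to restrain, were sparse. None of 11 ligands and receptors was counted in the stroma, and 2 were counted in the epithelium without a call, Fgf1 at -0.47 (-0.97 to 0.01) and Fgfr2 at -0.96 (-1.82 to -0.19). Under 100 UMIs, several list genes passed the 2-fold rule. In the stroma Fgf1 had 15 and 14 UMIs (2.12, 0.96 to 3.27), Fgf2 3 and 5 (2.96, 0.60 to 5.65), Wnt4 20 and 11 (1.36, 0.15 to 2.49) and Ccnd2 86 and 4 (-2.20, -4.11 to -0.80). In the epithelium Areg, a progesterone-induced growth factor, had 39 and 1 (-3.59, -8.93 to -1.03). Sfrp1 had 0 and 5, which was 2.43 higher in d/d with 0 taken as 3 and no counting error on the 5. Wnt4 had 35 and 22 (1.02, 0.19 to 1.83), Fgfr1 20 and 20 (1.69, 0.72 to 2.66), Ccnd2 26 and 20 (1.32, 0.40 to 2.21) and Mycn 24 and 18 (1.28, 0.31 to 2.22). These values rest on few molecules and are given as counts.

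Lists were also compared between stroma and epithelium. In f/f 2 of 3 counted transducers and 2 of 6 cilium genes were called higher and none lower, while the progesterone list gave 2 higher and 3 lower of 10. In d/d that list gave 1 higher and 3 lower of 6, and no transducer was counted. Of all genes 11.3% were called higher and 16.4% lower in f/f, and 4.48% and 18.4% in d/d. In f/f the counted genes with a called stromal excess over epithelium included Scube1 (log2 ratio 4.20), Hoxa10 (3.60), Hoxa11 (3.28), Ccnd2 (3.00), Evc (2.72), Bcl2 (2.24), Evc2 (2.07), Kif3a (1.398) and Arl13b (1.12). The last pair serve the cilium. Below 100 UMIs, Gli3 (3.97), Kif7 (3.36), Gpr161 (2.33), Gas1 (2.30), Hhat (1.66), Boc (1.47) and Stk36 (1.07) were called the same way. Growth factor genes Fgf10 (3.59), Fgfr3 (2.92), Fgfr1 (2.73) and Fgf7 (2.36) were called higher in the stroma too, as were Bmp2 (4.44, 1.59 to 9.89), Fgfr4 (3.85, 0.81 to 9.38) and Fgf12 (3.01, 1.05 to 5.51) on 1 to 3 epithelial UMIs. Called lower in the stroma were Fgf18 (-3.64, -6.72 to -1.72), Lrp2 (-3.21), Fgfr2 (-3.07), Fgf1 (-2.45), Sox17 (-2.37), Fkbp5 (-2.05), Gata2 (-1.97) and Areg (-1.69). The d/d library gave the same direction for Evc (3.24), Evc2 (3.08), Hoxa10 (4.11), Hoxa11 (3.50), Scube1 (4.34), Bcl2 (2.14), Gas1 (2.09) and Kif7 (2.38). It also did for Sox17 (-1.94), Gata2 (-1.38), Fkbp5 (-1.66) and Lrp2 (-2.43), of which Lrp2 turned to 0.11 (-0.59 to 0.76) without the mitochondrial limit. It called Tulp3 higher (1.21) and Ccnd1 (-1.89) and Fkbp4 (-1.11) lower in the stroma. With 0 UMIs on the other side taken as 3, d/d Bmp2 was higher by 2.21 and Fgf2 by 2.53 in the stroma, and Fgf18 lower by 1.14. Counting error of the side with UMIs is not in these values, so the differences could be smaller.

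The genes whose levels across 6 classes of both libraries ran most like those of each member were named by Pearson correlation of log2(CPM + 10) over the 12 profiles, among 6337 genes with at least 200 UMIs. The profiles share 2 libraries and differ in depth, so r is given as a description. For Ihh these were Nadsyn1 (r = 0.939), Rassf7 (0.930) and Rab3ip (0.895). For Ptch1 they were Vcan (0.964), Mmp23 (0.909) and Hoxa9 (0.907), and for Gli1 Shc2 (0.964), Col5a1 (0.946) and Prdm1 (0.941). For Hand2 they were P3h3 (0.973), Col3a1 (0.966), itself a gate marker, and Rcn3 (0.957). Nr2f2 ran with Dpt (0.921), Prmt3 (0.888) and Shc2 (0.884), and Smo with Npdc1 (0.952), Msantd2 (0.952) and Ccny (0.921). Collagen genes or the collagen-processing enzyme P3h3 thus appeared beside Gli1 and Hand2, and the epithelial level of Rassf7 was 182 CPM in f/f against 21.8 CPM in the stroma, the same direction as Ihh.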

How the data were processed

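The matrices, which name Cell Ranger 9.0.0 in their headers, hold deposited raw UMI counts. They come from the Chromium Flex assay, in which probe pairs hybridise to RNA in fixed cells. Per the labels' protocols about 25 mg of tissue was fixed for 16 h and then dissociated for 40 min. The submitters' processing notes name both mm10 and GRCm39 with no role, so coordinates come only from RefSeq. Counts depend on each gene's probes, so levels are not compared between genes.

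Barcodes with at least 200 genes and at most 10% mitochondrial UMIs were used (5517795 and 1712695 UMIs in f/f and d/d). Marker UMIs of each of 7 types were divided by their mean in the 1% of barcodes richest in them. A barcode was gated with at least 2 marker UMIs and a score at least 1.5 times that of the next type, which gated 62.5% and 59.1% of barcodes. The 917 and 306 barcodes with mixed markers were left out, which stands in for doublet removal, and no doublet caller was run. This gate was set after values under 3 gate schemes had been seen. Subset gates took cells with at least 1 UMI of a gate's genes and more than of any other gate's. Clusters, for an alternative, used 2000 variable genes, 30 components, 15 neighbours and Leiden resolution 1 (13 clusters).

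UMIs were summed per class and expressed as CPM of the class total. Sums have exact Poisson intervals, ratios exact conditional binomial intervals and shares Clopper-Pearson intervals, all at 95%. UMIs of 1 cell are not independent, and a sum of 0 was taken as up to 3 counts. No test was run. Genes named were the members, every list gene that passed the 2-fold rule (1 is not reported here) and, for each member with at least 100 gated UMIs, the 3 genes of closest profile. Members, lists and gates were chosen with earlier results of these data known. Tools were Python 3.11.15, numpy 2.4.6, scipy 1.17.1, scanpy 1.11.5, leidenalg 0.10.2 and, for TMM factors, edgeR 4.0.16. The scripts were tested on simulated data. Alternatives changed the barcode filters, the gate, the depth by thinning, the scaling and the gene minimum. The table columns all belong to the 2 libraries.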

Additional observations from a re-analysis of the deposited data

How the results depend on the processing

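Genotype ratios of Ihh in the epithelium and of Ptch1, Smo, Gli1, Nr2f2 and Hand2 in the stroma were recomputed under 11 other settings each. All 66 values kept their direction and none reversed. Ranges were -0.60 to -0.02 for Ihh, -1.08 to -0.53 for Ptch1, -1.10 to -0.32 for Smo, -0.57 to -0.16 for Gli1, -1.01 to -0.47 for Nr2f2 and -0.58 to -0.31 for Hand2. The 1 value outside the counting error was -1.08 for Ptch1 with marker UMIs not scaled and a lead of 2. The smallest Ihh value, -0.02, came with barcodes holding no UMI of any other type's markers, and here Ptch1 had an interval that included 0. TMM scaling shifted ratios by -0.03 in the epithelium and -0.04 in the stroma, and median-of-ratios scaling by -0.03 in both.

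The 72 cell type ratios of members also kept their direction, and 17 moved beyond counting error. With no UMI of other types' markers allowed, f/f ratios were 3.07 for Ptch1, 5.602 for Gli1, 2.12 for Nr2f2 and 4.83 for Hand2, and d/d Hand2 was 6.05. Without the mitochondrial limit Gli1 was 4.85 and Hand2 4.50 in f/f and 5.07 in d/d. Thinned to 500 UMIs, Nr2f2 was 2.01 and Hand2 3.93 for f/f, 4.61 for d/d. With mixed barcodes kept Hand2 was 3.35 and 3.52, with clusters 3.43 and 3.56 (d/d Nr2f2 1.996), and with unscaled markers 4.04 in f/f. The cause was not tested. Lrp2, stromal over epithelial in d/d, turned from -2.43 to 0.11 without the mitochondrial limit.

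Counts of called genes differed by over 1.5 times under several settings. With a minimum of 20 UMIs the d/d over f/f counts were 647 higher and 557 lower in the epithelium, against 295 and 285, and 276 and 288 in the stroma, against 30 and 102. Stromal counts of higher genes were 47 with mixed barcodes, 46 with clusters, 11 thinned, 63 with single marker UMIs ignored, 94 unscaled and 12 with no other markers. Lower ones were 59 thinned, 154 unscaled and 47 with no other markers, and thinning left 144 higher in the epithelium. Stromal over epithelial counts, 795 higher and 1151 lower in f/f, were 1804 and 1731 at 20 UMIs and 411 and 748 thinned, with 464 higher where no other markers were allowed. In d/d, 109 and 448 became 760 and 1049 at 20 UMIs, 52 and 209 thinned, 222 and 826 with clusters, 53 and 296 with no other markers, and 298 higher without the mitochondrial limit or 175 unscaled. The settings on single marker UMIs, unscaled markers and other types' markers were chosen after seeing the data. No paired analysis was possible because each genotype had 1 library. Epithelial Nr2f2 had -0.17 (-0.72 to 0.35) thinned. Depth limited Gli2, Hhip and the d/d subsets.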
